A study of Arabidopsis thaliana with 12 samples.

Results

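Fibrillarin is encoded in Arabidopsis thaliana by FIB1 (AT5G52470, chromosome 5, 21294147 to 21296819, plus strand) and FIB2 (AT4G25630, chromosome 4, 13074090 to 13076432, plus strand), and each gene carries a U60 small nucleolar RNA inside one of its introns. These 4 members, the mRNA bodies of FIB1 and FIB2 and the snoRNAs U60.1F (AT5G52471, chromosome 5, 21295736 to 21295809) and U60.2F (AT4G25631, chromosome 4, 13075563 to 13075635), were followed through 12 lists of crosslinking and immunoprecipitation (CLIP) peaks. Members were taken by position on the plus strand, and a peak inside a U60 span was given to the snoRNA whatever gene its name carried. By this rule 118 of the 1037099 deposited peaks belonged to the 4 members, and 86 remained once every peak that overlapped a stronger one of its library had been dropped: 48 in U60.1F, 26 in U60.2F, 4 in FIB1 outside U60.1F and 8 in FIB2 outside U60.2F.

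CLIP recovers RNA fragments that ultraviolet light has bonded to a protein, here a fluorescent protein or its fusion with a fibrillarin. The 3 groups were seedlings labelled GFP, GFP-FIB1 and CFP-FIB2, each with 4 libraries, and all shared the Col-0 background, an age of 14 days, growth on sucrose plates under long days, ultraviolet crosslinking and a small-RNA library kit. The lines' promoters, the number of lines, whether the native FIB genes were intact and whether the fusion constructs held introns appear in none of the sources used here. A read from a transgene copy and one from the native gene cannot be told apart in these lists, and since GFP alone was the control of both fusions, CFP-FIB2 differed from it in the fluorescent protein as well as in fibrillarin. Nothing states that the libraries of a group came from separate cultures, so the p-values below measure the spread between libraries, which may be technical.

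Fibrillarin catalyses the reaction of box C/D snoRNPs, nucleolar particles that add methyl groups to riboses of ribosomal RNA. A box C/D snoRNA carries the short C and D boxes near its ends and an internal, often imperfect D box (D′), and the stretch just before D or D′ pairs with rRNA and places 1 nucleotide of it for methylation. In plants many snoRNAs lie in introns or in clusters, and an intronic snoRNA is released from the intron rather than from the exons of its host. U60 is an example in which the host gene encodes the methyltransferase of the same particle.

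Both U60 genes lay in intron 5 of a host with 7 exons. U60.1F sat 244 nt from the upstream exon and 353 nt from the next one in an intron of 671 nt, and U60.2F sat 107 and 234 nt from its exons in an intron of 414 nt. The sequences are shown because their boxes are the landmarks for the peaks below; they are the genome sequence of TAIR10.1 at the RefSeq spans, 5′ to 3′ on the plus strand, with the C box, the D′ box and the D box in capitals.
U60.1F: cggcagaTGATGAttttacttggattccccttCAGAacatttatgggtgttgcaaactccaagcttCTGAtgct
U60.2F: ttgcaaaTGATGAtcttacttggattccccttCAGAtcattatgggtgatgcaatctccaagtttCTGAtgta
The C box (TGATGA) occupied positions 8 to 13 and the D′ box (CAGA) positions 33 to 36 of both, counted from the first annotated base. The D box (CTGA) occupied positions 67 to 70 of U60.1F and 66 to 69 of U60.2F. On the strand of the gene, 120 of the 287 annotated snoRNA genes (41.8%) held TGATGA within their first 20 nt and CTGA within their last 15 nt.

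The 11 bases before the D′ box, positions 22 to 32, were the same in both copies and occurred in only these 2 of the 287 snoRNA genes. They were complementary over all 11 bases to a site 2309 nt downstream of the annotated 5.8S rRNA genes AT2G01020 (chromosome 2, 8254 to 8264) and AT3G41979 (chromosome 3, 14202225 to 14202235), the side of the rRNA repeat on which the large-subunit rRNA lies. The pairing is shown with the complementary bases in capitals; the base opposite position 28, 5 bases before D′, was a G.
U60 guide element: ggattcccctt
rRNA site: cggacAAGGGGAATCCgactg
A match of letters describes the sequence and does not show that the site is used. U60.1F and U60.2F were identical in 63 of 74 aligned positions (85.1%), and the longest run they shared, 21 nt from position 16 to 36, ran from behind the C box through the guide to D′. The coding sequences of FIB1 (927 nt) and FIB2 (963 nt) were identical in 81.1% of aligned positions. Of the 20-nt words of U60.1F 2 of 55, and of U60.2F 2 of 54, occurred elsewhere in the genome, all of them in the other copy. By exact match a fragment of 20 nt could thus fit both genes only inside the shared run. Placement with mismatches was not examined, and the aligner is not given.

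The libraries differed among themselves in ways that the groups did not explain. Reads are the number that ends each deposited peak name, a reading that no source used here states. Reads in peaks ran from 2811379 to 12438185 per library, and the number of reads outside peaks is unknown. Over 4475 genes with peaks in every library the libraries fell into 3 sets that crossed the groups. Set A comprised replicates 1 and 2 of GFP and replicate 1 of both fusions. Set B comprised replicate 3 of GFP and replicate 2 of both fusions, and set C the rest, namely replicate 4 of GFP and replicates 3 and 4 of both fusions. Pearson r was 0.42 to 0.72 within set A and 0.74 to 0.82 within set C, 0.68 to 0.73 within set B and 0.49 to 0.66 between sets B and C, but 0.14 to 0.29 between set A and the others, so that B and C were less apart than either was from A. The labels name no batch, so the sets are a description of the libraries, and results are given with and without them. The green tissue markers RBCS1A, CAB2 and RCA and the root markers PYK10, BGLU21 and GAMMA-TIP had peaks in 10 to 12 of the 12 libraries. The summed level of the 3 green markers, as reads in peaks scaled to library size (RPM), was 33.8 to 102 RPM in GFP, 72.0 to 342 RPM in GFP-FIB1 and 78.6 to 196 RPM in CFP-FIB2. That of the 3 root markers was 10.5 to 21.2 RPM in GFP, 4.37 to 18.1 RPM in GFP-FIB1 and 5.19 to 20.5 RPM in CFP-FIB2. No marker was called in any comparison, and the part of the markers in the U60 results was not tested.

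U60.1F was higher in all 8 fusion libraries than in any GFP library, and in the fusions no kept peak of the FIB1 gene lay outside it. In GFP its peaks held 85, 178, 29 and 140 reads in replicates 1 to 4, in GFP-FIB1 269, 2572, 2044 and 3246, and in CFP-FIB2 525, 2862, 1940 and 1097. Scaled to reads in peaks of the tested features with trimmed-mean factors, these were 29.6, 34.7, 3.42 and 25.2 RPM in GFP, 72.8, 257, 362 and 645 RPM in GFP-FIB1, and 92.9, 295, 219 and 299.7 RPM in CFP-FIB2. Neither fusion group overlapped GFP. The lowest fusion library of each belonged to set A, the set with the highest GFP libraries. The trimmed-mean factor of CFP-FIB2 replicate 4 was 0.325, against 0.890 to 1.47 in the other libraries, which raised its RPM and the group mean. As a share of all reads in peaks its U60.1F was 0.00882%, below CFP-FIB2 replicates 2 and 3 (0.0265 and 0.0229%). That share was still above the highest GFP library (0.00389%). In whole seedlings, and with no RNA from before the immunoprecipitation analysed here, more snoRNA per cell, more cells holding it and more of it bound cannot be told apart. The means were 23.2 ± 13.8 RPM in GFP, 334 ± 239 RPM in GFP-FIB1 and 227 ± 96.6 RPM in CFP-FIB2 (SD, n = 4 each), so the mean was 14.4-fold that of GFP with GFP-FIB1 and 9.76-fold with CFP-FIB2. Complete separation of 4 libraries from 4 was seen in 0.981% of the 19566 tested features for GFP-FIB1 over GFP, in 1.31% for CFP-FIB2 over GFP, and in 0.496% for GFP-FIB1 over CFP-FIB2, where neither U60 separated.

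The U60.1F difference from GFP was above 0 under every alternative tried, but whether it passed the test across all features depended on how the sets of libraries were treated. On log2(RPM + 1) the difference from GFP was 3.78 ± 1.06 (SE) for GFP-FIB1 and 3.46 ± 1.06 for CFP-FIB2, with limma adjusted p of 0.616 and 0.926. That fit called 0 features (0%) in either direction in any comparison, while 593 (3.03%) and 492 (2.51%) had an unadjusted p below 0.05 over GFP and 232 (1.19%) between the fusions. With the 3 sets as a term, limma called 125 features higher (0.639%) and 15 lower (0.0767%) with GFP-FIB1, and 115 higher (0.588%) and 3 lower (0.0153%) with CFP-FIB2. The sets were found from peak reads of the same libraries and entered as if known, so p-values of that fit may be too small. In that fit U60.1F rose by 3.53 ± 0.71 (adjusted p = 0.0155) with GFP-FIB1 and by 3.21 ± 0.71 (adjusted p = 0.0393) with CFP-FIB2. Leaving out 1 library at a time from it kept U60.1F past the threshold in 8 of 12 fits for GFP-FIB1 and in 4 of 12 for CFP-FIB2. Without GFP replicate 3, which had the lowest U60.1F level, the differences were 2.54 (adjusted p = 0.172) and 2.24 (adjusted p = 0.376). Within each of the 3 sets every fusion library was above every GFP library. That follows from the separation over all libraries given above and is no separate result. When scaled by total reads in place of trimmed-mean factors, without the sets as a term, the differences were 3.78 for GFP-FIB1 and 3.02 for CFP-FIB2.

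U60.1F made up a mean of 0.00227% of all reads in peaks in GFP, 0.0302% in GFP-FIB1 and 0.0163% in CFP-FIB2. An exact permutation test over libraries gave p = 0.0286 for each fusion against GFP, two-sided and the smallest that 4 against 4 allows, and 0.171 after Benjamini-Hochberg adjustment over the 12 share tests.

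**Figure D1:**
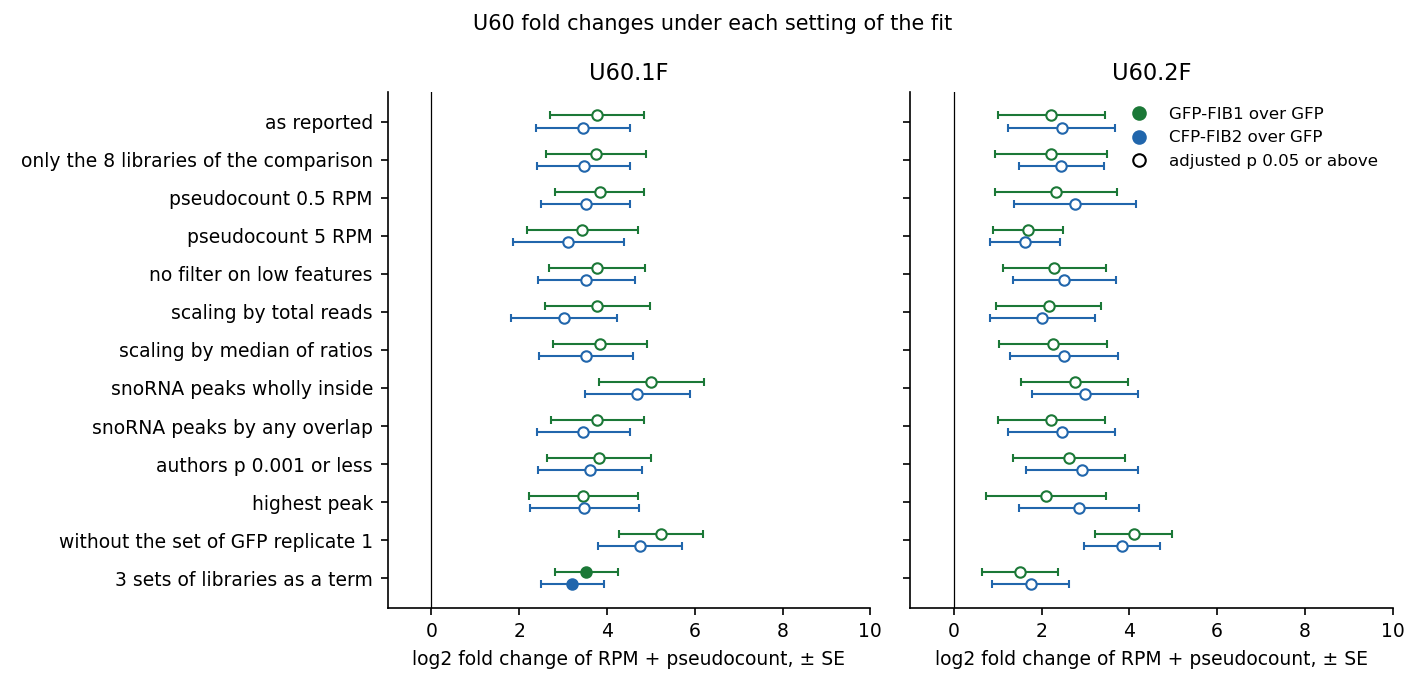
Log2 fold change over GFP of U60.1F and U60.2F, with SE, under the settings of the fit named on the axis, for GFP-FIB1 and CFP-FIB2; filled points have an adjusted p below 0.05. Values are above 0 under every setting shown, and filled points appear for U60.1F with the 3 sets of libraries as a term.

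**Figure D2:**
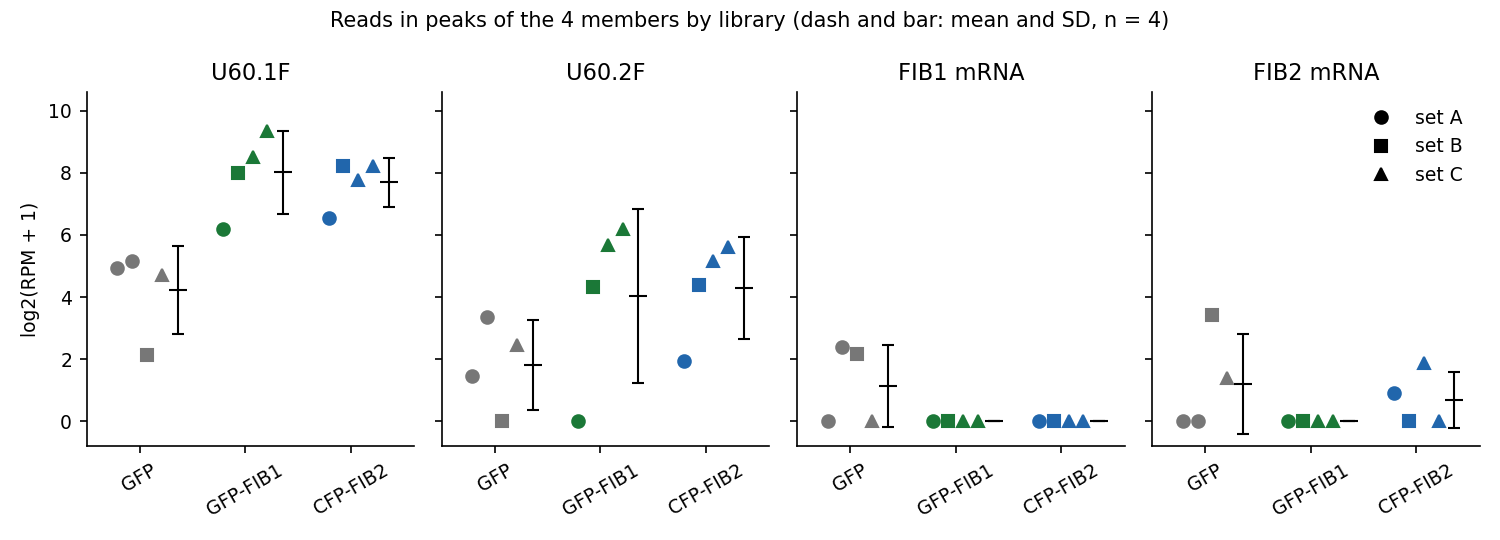
Level of each member by library, as log2 of RPM plus 1, for the 3 groups; point shapes give the 3 sets of libraries, and the dash and bar beside each group are the mean and SD of 4 libraries. U60.1F is higher in all 8 fusion libraries than in GFP, U60.2F in all but the set A fusion libraries, and the mRNA bodies are at 0 in most libraries.

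U60.2F had a higher mean with both fusions too, from a lower level and with overlap, and did not pass the test. Its peaks held 5, 48, 0 and 25 reads in GFP replicates 1 to 4, 0, 191, 282 and 359 in GFP-FIB1, and 16, 194, 307 and 177 in CFP-FIB2. In RPM these were 1.74, 9.37, 0 and 4.50 in GFP, 0, 19.1, 49.9 and 71.3 in GFP-FIB1, and 2.83, 20.01, 34.7 and 48.4 in CFP-FIB2. The 3 fusion libraries of sets B and C in each fusion group were above all GFP libraries, while replicate 1 of each, the set A library, lay inside the GFP range. By share of reads in peaks, CFP-FIB2 replicate 4 (0.00142%) was below CFP-FIB2 replicates 2 and 3 (0.00180 and 0.00363%). It was above the highest GFP library (0.00105%) by that share too. The means were 3.90 ± 4.09 RPM in GFP, 35.1 ± 31.7 RPM in GFP-FIB1 and 26.5 ± 19.6 RPM in CFP-FIB2 (SD, n = 4 each). The log2 differences from GFP were 2.22 ± 1.22 for GFP-FIB1 and 2.46 ± 1.22 for CFP-FIB2, and neither passed (limma adjusted p = 1.00 for both). With the sets as a term they were 1.51 ± 0.87 (adjusted p = 0.723) and 1.75 ± 0.87 (adjusted p = 0.836), so U60.2F was not called in either fit. Without the 4 libraries of set A the differences were 4.10 (adjusted p = 0.132) and 3.83 (adjusted p = 0.261). The exact permutation p of its share of reads in peaks was 0.143 for GFP-FIB1 and 0.0857 for CFP-FIB2.

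The balance of the copies favoured U60.1F in every library that had peaks of both. In GFP there were 17.0, 3.71 and 5.60 reads of U60.1F per read of U60.2F in replicates 1, 2 and 4. GFP replicate 3 had no U60.2F peak, and an assumed 3 reads gave 9.67. More than 3 reads may go unlisted, so a value of this kind is no strict lower bound. In GFP-FIB1 the same assumption gave 89.7 in replicate 1, and there were 13.5, 7.25 and 9.04 in replicates 2 to 4. In CFP-FIB2 there were 32.8, 14.8, 6.32 and 6.20. Over the summed reads of a group there were 5.54 in GFP, 9.77 in GFP-FIB1 and 9.26 in CFP-FIB2, and the groups overlapped. The log2 ratio, with 1 read added to each, differed between groups by 1.20 for GFP-FIB1 against GFP, 0.26 for CFP-FIB2 against GFP and 0.93 for GFP-FIB1 against CFP-FIB2, with exact permutation p of 0.514, 0.686 and 0.600. No preference of a fusion for the U60 of its own gene was detectable at this number of libraries. The direct contrast of the fusions gave log2 differences, GFP-FIB1 over CFP-FIB2, of 0.32 ± 1.06 for U60.1F and −0.23 ± 1.22 for U60.2F (limma adjusted p = 1.00 for both). Those signs changed under other settings, and an SE of over 1 on the log2 scale leaves room for a difference of several fold either way.

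**Figure D3:**
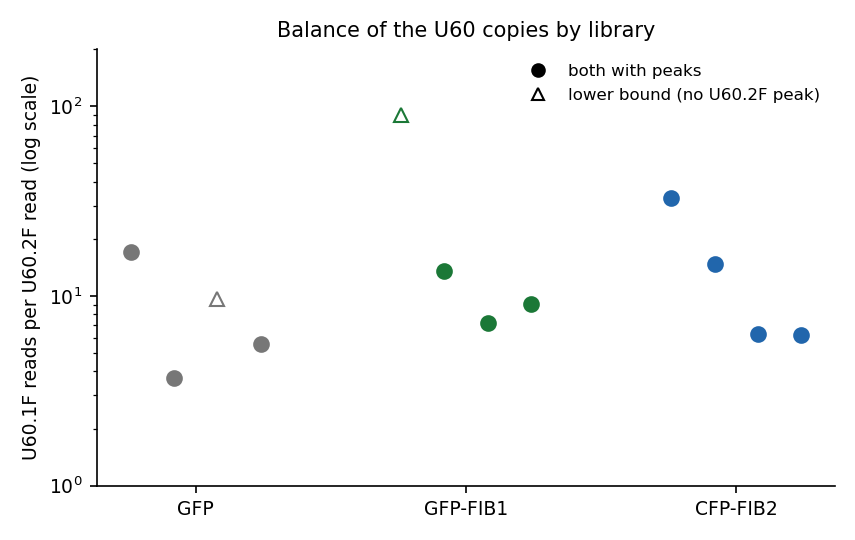
Reads of U60.1F per read of U60.2F in each library, on a log scale, by group. Open triangles are libraries with no U60.2F peak, set against an assumed 3 reads. They are lower bounds only if no more than 3 reads went unlisted. The groups overlap, and every library lies above 1.

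Each kept peak was placed by its midpoint either before the D′ box, here called the 5′ block, or from D′ on, the 3′ block. In 6 of the 8 fusion libraries, those of sets A and C, the strongest peak of U60.1F began at position 1 to 4 and ended at 3 to 9, mostly ahead of the C box, and in the 2 of set B it ran from 2 to 26. The 5′ block of U60.1F held 69.1, 68.2, 64.3 and 60.8% of reads for replicates 1 to 4 of GFP-FIB1, and 98.7, 73.0, 64.4 and 69.6% in CFP-FIB2. GFP libraries held 0, 75.8, 100.0 and 61.4%, and the extremes came from replicates 1 and 3, in which a single long peak (positions 4 to 75 and 2 to 49) was put on one side by its midpoint. In U60.2F the share was 72.8, 61.3 and 49.0% for replicates 2 to 4 of GFP-FIB1, and 100.0, 84.5, 58.0 and 70.1% in CFP-FIB2. GFP replicates 1, 2 and 4 held 0, 58.3 and 100.0%. Long peaks across D′ were put in the 5′ block in fusions too. These were U60.2F peaks at 4 to 44 (16 reads) and 2 to 38 (164 reads) in CFP-FIB2 replicates 1 and 2. Another was the U60.1F peak at 23 to 41 (28 reads) in CFP-FIB2 replicate 1. No difference in this share between groups passed a test for either copy (6 tests added after the peaks were seen, exact permutation p of 0.114 to 0.886, adjusted p of 0.686 to 0.886).

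In sets B and C some edges of U60.1F peaks recurred between the fusions, while in set A they did not: GFP-FIB1 replicate 1 had peaks at positions 4 to 5, 46 to 49 and 50 to 54, and CFP-FIB2 replicate 1 at 1, 2 to 7, 23 to 41 and 54 to 57. In set B the 5′ block of U60.1F was 1 peak from position 2 to 26, with 1755 reads in GFP-FIB1 replicate 2 and 2090 in CFP-FIB2 replicate 2. In set C it was split: GFP-FIB1 replicates 3 and 4 had 1183 reads at positions 1 to 9 and 1819 at 1 to 7, and CFP-FIB2 replicates 3 and 4 had 1079 at 1 to 8 and 694 at 1 to 3. Each of those 4 libraries then had a second peak at positions 14 to 26, of 127, 146, 163 and 65 reads. The 5′ block thus ended at position 26 in all 6 fusion libraries of sets B and C. It ended there in GFP replicate 4 of set C too, with 86 reads at positions 2 to 26, so this end was not particular to the fusions. In GFP replicates 2 and 3 the block ended at 24 and 49, and GFP replicate 1 had no peak in it. Position 26 lies inside the guide element, 2 nt before the position opposite the rRNA G. Positions 27 to 30 lay in no kept peak in any of the 4 GFP-FIB1 libraries or in CFP-FIB2 replicates 3 and 4. Kept peaks of 28 and 53 reads crossed them in CFP-FIB2 replicates 1 and 2. A gap between kept peaks does not show that no read lay there. Weaker overlapping peaks named for U60.1F were dropped, and over the series these reached position 40. They may cover such gaps, so the edges given are those of kept peaks only.

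The 3′ block of U60.1F began between positions 31 and 35 in 5 of the 6 fusion libraries of sets B and C, and at 27 in CFP-FIB2 replicate 2. It ended at or before position 61 in all 8 fusion libraries, ahead of the D box. In GFP, the peaks of replicates 1 and 4 ran to positions 75 and 74. Those of GFP replicates 2 and 3 ended at 64 and 49, also ahead of the D box. In U60.2F the last fusion peak ended at position 66. GFP replicates 1 and 2 reached 74 and 75, while GFP replicate 4 ended at 39. The strongest 3′ peaks of U60.1F held 661, 395 and 703 reads in replicates 2 to 4 of GFP-FIB1, against 591, 545 and 154 for CFP-FIB2. U60.2F had fewer reads and less regular edges: in set B its first peak ended at position 26 in GFP-FIB1 and at 38 in CFP-FIB2. In set C it had 156 reads at positions 2 to 4 and 106 at 41 to 45 in GFP-FIB1 replicate 3, and 178 at 2 to 5 and 114 at 42 to 46 in CFP-FIB2 replicate 3. In GFP-FIB1 replicate 4 its 3′ peak at 40 to 47 held 166 reads, slightly more than the 163 at 3 to 6.

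**Figure D4:**
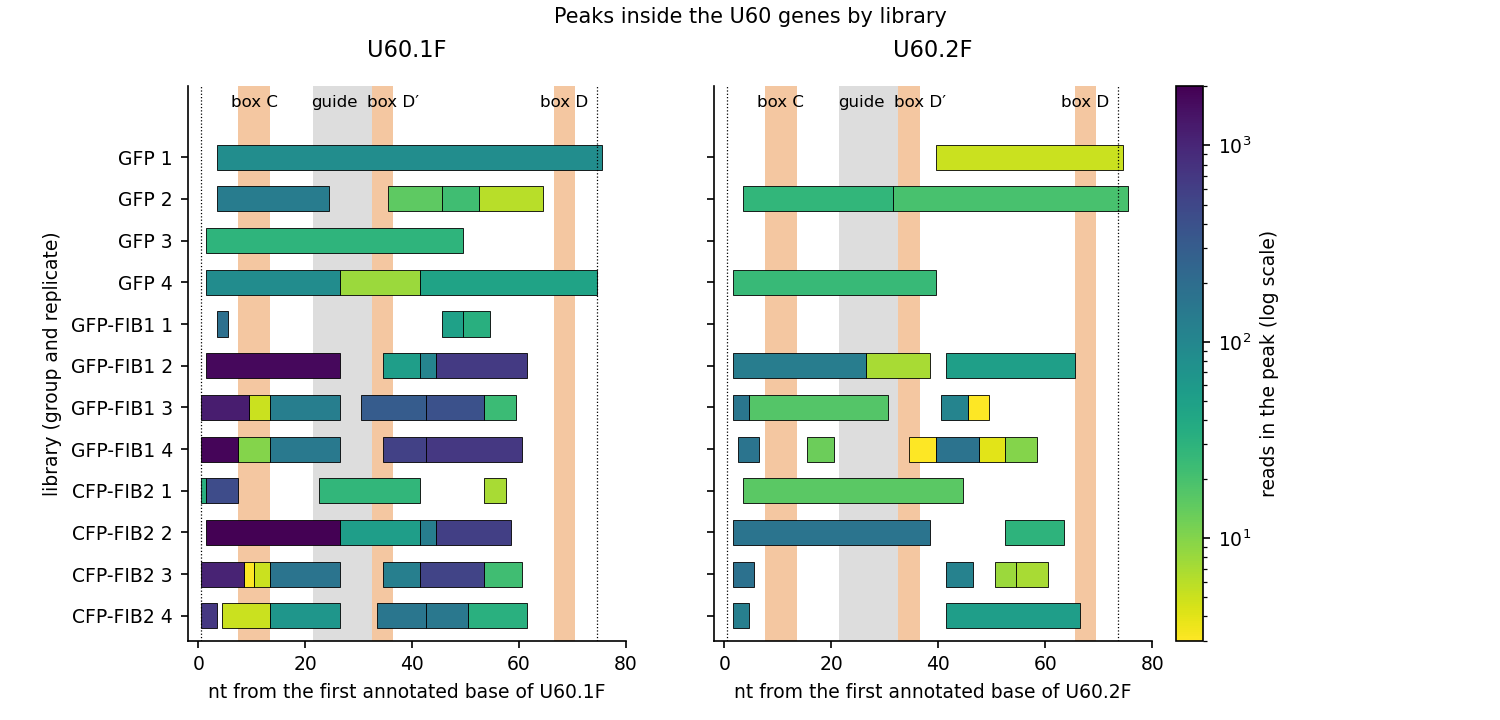
Peaks inside U60.1F and U60.2F in each library, by distance in nt from the first annotated base; bar colour gives reads in the peak on a log scale, shaded columns mark the C, D′ and D boxes and the guide element, and dotted lines the annotated ends. Only peaks kept after the removal of overlaps are drawn. In U60.1F the fusion libraries of sets B and C and GFP replicate 4 carry a 5′ block ending at position 26. No fusion peak of U60.1F runs past position 61.

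Nearly all of these snoRNA reads were listed under the host genes. Of the peaks kept in U60.1F, those named for FIB1 held 99.97% of the reads, and in U60.2F those named for FIB2 held 98.9%. Of the 51 deposited peaks named for FIB1, 47 lay over U60.1F, and of the 34 named for FIB2, 26 lay over U60.2F. Peaks named for the snoRNAs themselves numbered 23 and 10 and covered positions 2 to 40 and 3 to 30, and all but 1 in each overlapped a stronger peak named for the host. A tally by name alone would therefore have placed the U60 reads in the fibrillarin mRNAs. The deposited p-value was listed as 0 for 15 of the 48 kept U60.1F peaks.

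Outside the U60 spans the fibrillarin genes had few peaks, and none on FIB1 in any fusion library. FIB1 mRNA peaks held 0, 22, 30 and 0 reads in GFP replicates 1 to 4 and 0 in all 8 fusion libraries. The 22 reads of GFP replicate 2 were in the 5′ UTR in exon 1, and GFP replicate 3 had 11 reads in exon 2, 11 in intron 5 behind U60.1F and 8 in exon 7. FIB2 mRNA peaks held 0, 0, 82 and 9 reads in GFP, 0 in all 4 GFP-FIB1 libraries, and 5, 0, 24 and 0 in CFP-FIB2. In GFP replicate 3 they lay in exon 2 (29, 4 and 32 reads) and exon 3 (8 and 9 reads), and in GFP replicate 4 and CFP-FIB2 replicates 1 and 3 in exon 5.

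The 8 FIB2 peaks were thus all exonic, and 3 of the 4 FIB1 peaks were. The presence of a peak gave no difference that passed a test: 2 of 4 GFP libraries against 0 of 4 for FIB1 in each fusion gave Fisher's exact p = 0.429, and 2 of 4 against 0 of 8 gave 0.0909. Neither mRNA reached the level needed to enter the fit across features, so no fold change is given for either. Peaks of 3 to 10 reads were listed elsewhere under these gene names in several fusion libraries, and mRNA fragments below the caller's threshold do not appear.

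Reads of U60.1F could be set against FIB1 mRNA in few libraries. In GFP there were 8.09 reads of U60.1F per FIB1 mRNA read in replicate 2 and 0.967 in replicate 3, where the gene held about as many reads outside the snoRNA as in it. Replicates 1 and 4 had no mRNA peak, and an assumed 3 reads gave 28.3 and 46.7. In the fusion libraries, none of which had an FIB1 mRNA peak, the same assumption gave 89.7 to 1082 in GFP-FIB1 and 175 to 954 in CFP-FIB2. With no listed mRNA reads these values follow the U60.1F reads and the depth alone, and more than 3 unlisted mRNA reads would lower them. The permutation test of the log2 ratio with 1 read added on each side (exact p = 0.0286 for each fusion against GFP, 0.171 after adjustment over the 12 ratio tests) therefore repeats the separation of U60.1F and is no separate result. FIB2 mRNA likewise had no peak in any GFP-FIB1 library, in CFP-FIB2 replicates 2 and 4 and in GFP replicates 1 and 2, and the same test for U60.2F gave exact p = 0.171 for each fusion against GFP.

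Other hosts of intronic snoRNAs also lacked peaks of their own. Peaks were found on 67 snoRNAs lying inside 44 protein-coding hosts on the same strand. No peak outside the snoRNA was found on 4 of the 44 hosts in any GFP library, on 13 in GFP-FIB1 and on 9 in CFP-FIB2. FIB1 was among them in both fusion groups and FIB2 in GFP-FIB1. Hosts with such a peak numbered 18 to 30 per library in GFP, 18 to 22 in GFP-FIB1 and 16 to 26 in CFP-FIB2, which overlap. Their summed reads were 6190, 7390 and 15148. The share of all protein-coding genes without a peak was not computed, so no general loss on hosts can be read from these counts.

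U60.1F lay near the middle of the box C/D class with the sets as a term and in its lower part without them. U60.2F lay low in the class in both fits. By the motif rule (TGATGA with at most 1 mismatch in the first 20 nt, CTGA in the last 15 nt, at most 150 nt long) 163 snoRNA genes were box C/D and 152 of them were tested. Their median log2 difference from GFP was 4.26 for GFP-FIB1 and 4.06 for CFP-FIB2, beside 0.06 and 0.09 for all features, and it was above 0 in 152 and 151 of 152. A gene could enter the test through 4 fusion libraries alone, and one that did would lean above 0 by that filter. How many did was not counted, so these medians and counts describe the tested genes and are no test of the class. With the sets as a term 95 and 89 of the 152 were called higher and 0 lower, against 0.639% and 0.588% of all features. By size of the difference U60.1F ranked 105th of 152 for GFP-FIB1 and 115th for CFP-FIB2, and U60.2F ranked 143rd and 140th. With the sets as a term U60.1F ranked 75th (3.53, class median 3.40) and 81st (3.21, class median 3.32), and U60.2F 145th and 135th. By mean RPM per nt, U60.1F ranked 41st in GFP and 66th in both fusion groups (4.51 RPM per nt in GFP-FIB1 against a class median of 3.62). U60.2F ranked 110th in GFP and 136th in both fusion groups (0.481 RPM per nt in GFP-FIB1).

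**Figure D5:**
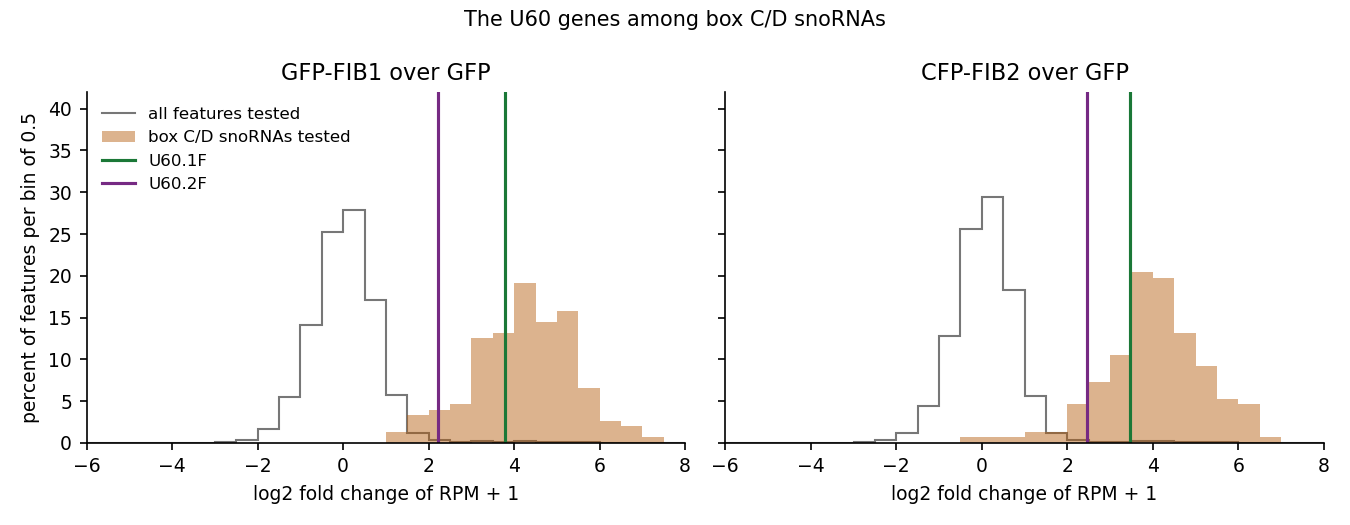
Distribution of log2 fold changes of RPM plus 1 over GFP for all 19566 tested features (line) and 152 box C/D snoRNAs (filled), as percent of features per bin of 0.5, with U60.1F and U60.2F as vertical lines. In the fit without the sets as a term, U60.1F at 3.78 and 3.46 lies below the class medians of 4.26 and 4.06. It ranks 105th and 115th of 152 there. U60.2F at 2.22 and 2.46 lies in the lower tail.

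The features whose levels ran most alike with the U60 genes over the 12 libraries were mostly other snoRNAs. For U60.1F the highest Pearson r of log2(RPM + 1) were 0.94 for AT1G08107, 0.93 for AT3G24614, 0.92 for AT1G74453, 0.92 for AT2G20722 and 0.92 for AT4G06010, all annotated as snoRNA. For U60.2F they were 0.96 for AT5G66562, 0.95 for AT4G06010, 0.94 for the protein-coding AT3G60770, 0.91 for AT3G02445 and 0.90 for AT2G08905, and the other 4 were snoRNAs. Between U60.1F and U60.2F r was 0.84. These correlations share the groups, the sets and the depth of the same 12 libraries and are given as a description.

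No gene for a partner protein of fibrillarin was called. Of 12 genes for box C/D snoRNP proteins and assembly factors 10 were tested, and 0 were called in either direction in any comparison, with or without the sets as a term; their median log2 difference was −0.51 for GFP-FIB1 and −0.48 for CFP-FIB2. NOP56 (AT1G56110), a core protein of the particle, stood at 73.0 ± 140 RPM in GFP, 104 ± 116 in GFP-FIB1 and 160.4 ± 180.2 in CFP-FIB2 (SD, n = 4), a spread larger than its differences. The fibrillarin-like AT5G52490 stood at 3.28 ± 1.07, 1.03 ± 0.87 and 1.86 ± 0.70 RPM, with a log2 difference of −1.15 for GFP-FIB1 (limma adjusted p = 1.00). Of 5 genes for H/ACA snoRNP proteins, the other class of modification particle, 4 were tested and 0 called; of the nucleolin genes NUC-L1 and NUC-L2, both were tested and 0 called. An unadjusted p below 0.05 was found for 1 of the 10 box C/D protein genes, AT5G52490, and for 0 in the other lists with GFP-FIB1, and for 0 in any of the lists with CFP-FIB2, beside 3.03% and 2.51% of all tested features.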

How the data were processed

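The peak lists were deposited by the authors as 1 list per library (n = 12), with a chromosome, start, end, strand, summit, name and p-value for each peak. The deposited p-value is the authors' own and did not exceed 0.05. The number that ends each name was taken for its reads, a score that no source used here defines, so no count model was used. The submitters' processing notes name DESeq2; aligner, caller and build are not given in these sources, and the peaks fitted the gene bounds of TAIR10.1 (RefSeq), which was used for annotation and sequence. Where peaks of a library overlapped, the peak with most reads was kept (4108 removed, 0.396%), and a peak with most of its length inside an annotated snoRNA on its strand was given to it. Summing adjacent peaks may count a read more than once. Features with at least 10 reads at median depth in 4 libraries were tested (19566) with limma 3.58.1 in R 4.3.3 on log2(RPM + 1), which understates fold changes of low features; RPM used trimmed-mean factors. Shares and ratios were tested with two-sided exact permutation tests (scipy 1.17.1) over the 70 splits of 4 against 4. The fit was tested on simulated data. Text names the 4 members, lists of snoRNP, nucleolin and tissue genes, and the 5 features most correlated with each U60; the members and lists were chosen with earlier results of these data known. The 3 sets of libraries came from Ward clustering of correlations. Alternatives changed scaling, pseudocount, filter, peak assignment, libraries and covariates.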

Additional observations from a re-analysis of the deposited data

Results flagged for a closer look

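In 3 of 36 groups of 4 libraries looked at, a single library stood further from the rest than Dixon's 95% criterion allows (0.829 of the range). Levels and shares of a member use the same reads, and groups that were all 0 could not be flagged. The 36 are therefore not separate trials, and no chance rate is set beside the 3. GFP replicate 3 had 9.66 RPM of FIB2 mRNA, while the other GFP libraries had 0 to 1.62 RPM. GFP-FIB1 replicate 1 had a log2 ratio of U60.2F to FIB2 mRNA of 0, since neither had a peak there, while the other 3 libraries of its group had 7.58 to 8.49. The same library had a log2 ratio of U60.1F to U60.2F of 8.08, with 1 read added to each and no U60.2F peak, while the other 3 had 2.85 to 3.74. The last gap only just exceeded the criterion.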

How the results depend on the processing

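A library with no listed peak may still hold reads, which limits each 0 given for the mRNAs and for U60.2F; how far depth sets these was not tested, and GFP replicate 3, the deepest GFP library, was among those with no U60.2F peak. Of 777 alternative values for 33 results, 702 kept their direction and side of the threshold, 15 newly passed it, 33 moved and 27 reversed; no alternative ended a call, since none stood. The U60 differences from GFP were above 0 in all 148 alternatives, U60.1F from 2.54 to 5.23 on the log2 scale for GFP-FIB1 and from 2.24 to 4.76 for CFP-FIB2, U60.2F from 0.52 to 4.10 and from 0.75 to 3.83. The cause of the changes below was not tested.

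Same-numbered libraries of different groups had correlated deviations in 10 of 12 pairs (r over 0.1, range −0.283 to 0.594), against 9 of 36 pairs with other numbers. The exceptions were GFP replicate 2 with replicate 2 of GFP-FIB1 (r = −0.033) and of CFP-FIB2 (r = −0.283). No label ties the numbers, so they were not taken to pair the samples in the main fit. With the replicate number as a block, limma called 142 features with GFP-FIB1 and 129 with CFP-FIB2, each set against GFP, and U60.1F differed by 3.78 (adjusted p = 0.0324) and 3.46 (adjusted p = 0.0684).

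With the 3 sets of libraries as a term, the counts were 140 and 118 in place of 0, and U60.1F differed by 3.53 and 3.21. Counting only peaks wholly inside a snoRNA called 1 feature for CFP-FIB2. Leaving out 1 library at a time, with or without the sets as a term (the former added after seeing the data), gave 0 to 162 calls for GFP-FIB1 and 0 to 159 for CFP-FIB2. Without the sets as a term, 9 features were called for GFP-FIB1 without its replicate 1, 5 without GFP replicate 4 and 4 without set A.

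Every reversal concerned a difference that never passed. Between the fusions, GFP-FIB1 over CFP-FIB2, U60.1F went from 0.32 to −0.0213 by its highest peak and ranged from −0.13 to 0.93 with 1 library left out. U60.2F went from −0.23 to 0.0707 with a pseudocount of 5 RPM and to 0.147 when scaled by total reads, and ranged from −1.05 to 1.07. The log2 ratio of U60.1F to FIB1 mRNA, with 1 read added to each, went to −0.00568 by the highest peak and ranged from −0.32 to 0.94, that of U60.2F to FIB2 mRNA from −0.18 to 3.02, and that of U60.1F to U60.2F from −0.27 to 1.47. Over GFP, the ratio of U60.1F to U60.2F ranged from −0.00726 to 1.75 for GFP-FIB1 and from −0.21 to 0.81 for CFP-FIB2, where peaks of deposited p at most 0.001 gave −0.37. The ratio of FIB1 to FIB2 mRNA for GFP-FIB1 was −0.0504 with those peaks and ranged from −1.03 to 1.58. The FIB2 mRNA share for CFP-FIB2 ranged from −0.00018984 to 4.64e-05 percentage points.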
